A study of Mus musculus with 19 samples.

Results

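The 85 entries for genes of the cytosolic ribosome were taken out of the 60567 entries listed, by their symbols: Rps or Rpl followed by a number, Rplp0 to Rplp2, and Rpsa, leaving out symbols of numbered pseudogenes. They comprise 31 genes of the small subunit, 43 of the large subunit, the 3 genes of the P-stalk, and 8 paralogs or gene copies, namely Rpl3l, Rpl7l1, Rpl10l, Rpl22l1, Rpl32l, Rpl39l, Rps4l and Rps27l. Of the 79 genes that encode the core proteins, all 77 that fit the symbols were found. Fau, whose product is fused to a ubiquitin-like protein, falls outside the symbols and is given as a neighbour.

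RNA was measured in cells sorted by FACS from the hippocampus of male C57bl6 mice at 9 months of age. Every mouse had received an AAV in the CA1 region months earlier, with expression driven by gfaABC1D, a promoter derived from the astrocyte gene GFAP, so the GFP+ cells are the infected astrocytes of the injected area. There were 7 samples of WT-GFP astrocytes (non-transgenic littermates, GFP vector), 4 of APP-GFP astrocytes (APP/PS1dE9 transgenic mice, whose transgenes include a chimeric App with the Swedish mutations, GFP vector) and 5 of APP-SOCS3 astrocytes (the same transgenic mice, a vector for murine SOCS3 together with the GFP vector at the same total titre). The 3 samples of GFP- cells came from WT-GFP mice and pool microglia, neurons, oligodendrocyte precursors, non-infected astrocytes and other cells. There was no WT group with SOCS3. The paper describes both hippocampi of a mouse as sorted on their own, and a legend counts the astrocyte samples of each group as mice. The labels tie no sample to a mouse. Samples of the same group that share a mouse would make the p-values below too small. A mouse shared between the groups compared, as astrocytes and GFP- cells may have, would be a pairing that the tests leave out, and p-values can then be too large.

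The ribosome translates mRNA into protein. Its small subunit binds and reads the mRNA, its large subunit forms the peptide bonds, and the P-stalk of the large subunit recruits the elongation factors. Ribosomal protein genes are transcribed in nearly every cell, and most of their mRNAs begin with a tract of pyrimidines, the 5′ TOP motif, through which mTOR signalling controls their translation. RNAseq measures the mRNA and not its translation.

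The start of the transcripts of these genes is shown first, as a description. The RefSeq promoter table for GRCm38.p6, the same assembly as the mm10 genome used by the authors, held 76 annotated starts for 64 of the 85 genes. A run of at least 8 C or T bases lay within the 30 bases around the start (10 before it and 20 from it) at 25 of the 76 starts on the transcribed strand, or 32.9%, against 11.2% of all 32851 starts in the table. On the opposite strand the shares were 3.95% and 13.3%. The letters CTTTC were present in the same window on the transcribed strand in 19.7% of the starts of these genes and in 3.74% of all starts, and on the opposite strand in 3.95% and 3.65%. The letters CGGAAG, searched on either strand of the 300 bases, were in 59.2% of the starts of these genes and in 16.9% of all starts. These are matches of letters, which overlap one another in part, and annotated starts can lie off the base where transcription begins.

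The lines below print these 30 bases 5′ to 3′ on the transcribed strand, with the longest pyrimidine run in capitals, for genes the results turn on: Rpl18 and Rpl28, which were among those closest to the common shift, Rps6 and Rplp2 of the 2 subunits, and Rps3a1, Rplp0, Rps2 and Rpl10, which were lower in astrocytes than in GFP- cells. They lie at chr7:45718061-45718090, chr7:4792955-4792984, chr4:86857348-86857377 (minus strand), chr7:141447641-141447670, chr3:86142649-86142678 (minus strand), chr5:115559457-115559486, chr17:24720053-24720082 and chrX:74270806-74270835.
Rpl18: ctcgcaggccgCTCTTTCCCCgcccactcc
Rpl28: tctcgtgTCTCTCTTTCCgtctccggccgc
Rps6: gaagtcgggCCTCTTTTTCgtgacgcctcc
Rplp2: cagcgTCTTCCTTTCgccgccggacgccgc
Rps3a1: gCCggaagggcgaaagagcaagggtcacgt
Rplp0: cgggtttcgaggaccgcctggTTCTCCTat
Rps2: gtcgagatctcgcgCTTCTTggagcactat
Rpl10: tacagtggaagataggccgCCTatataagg

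The first 4 windows hold runs of 10, 11, 10 and 10 pyrimidines. In the other 4 the longest run is 2, 7, 6 and 3 bases at the annotated start, which says nothing about starts a few bases away. This contrast belongs to the genes printed. Among the other genes called lower in astrocytes, runs went from 2 in Rps3 to 9 in Rps27 and Rps15a and 10 in Rpl22l1. Rps25, also close to the common shift, held a run of 4. Whether run length goes with the shift or with a group difference was not tested.

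Levels below are the values the authors deposited, read counts scaled by a size factor for each sample, and are called normalised reads. Between 19331876 and 32621917 reads lay on genes in each sample. The vector gene checked the labels: Socs3 was at 13296 to 37750 normalised reads in the 5 APP-SOCS3 samples and at 438 to 1639 in the 11 other astrocyte samples, while the GFP- samples, which had no SOCS3 vector, held 10320 to 17689. All 12 astrocyte markers were higher in WT-GFP astrocytes than in GFP- cells, and all 12 microglial, 10 endothelial and 6 mural markers were lower. So were all 6 markers of oligodendrocyte precursors, and 6 of 8 neuronal markers were called lower. Of 8 oligodendrocyte markers 2 were called higher and 2 lower, with mean summed levels of 5746.5 in WT-GFP astrocytes and 2995 in GFP- cells. Genes detected ranged from 15575 to 26757 in astrocyte samples and from 30807 to 31897 in GFP- samples.

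The 85 genes together took a small share of the reads counted on genes. Only reads on constitutive regions were counted, so this is not their share of the mRNA in the cells. The share was lowest in WT-GFP replicate 7, at 0.159% (Wilson 95% interval 0.157 to 0.160%, covering counting error only), and highest in GFP- replicate 2, at 0.481% (0.478 to 0.483%). Summed over the genes, the level was 63272 ± 22800 normalised reads in WT-GFP astrocytes (SD, n = 7), 67746 ± 15831 in APP-GFP astrocytes (SD, n = 4), 58188 ± 13011 in APP-SOCS3 astrocytes (SD, n = 5) and 92038 ± 7213 in GFP- cells (SD, n = 3). The ranges of the 3 astrocyte groups overlapped, and the range of WT-GFP astrocytes, 34578 to 104059, also enclosed that of GFP- cells, 84741 to 99164. As a share of reads the 3 GFP- samples, at 0.398 to 0.481%, lay above all 7 WT-GFP astrocyte samples, at 0.159 to 0.394%.

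**Figure D1:**
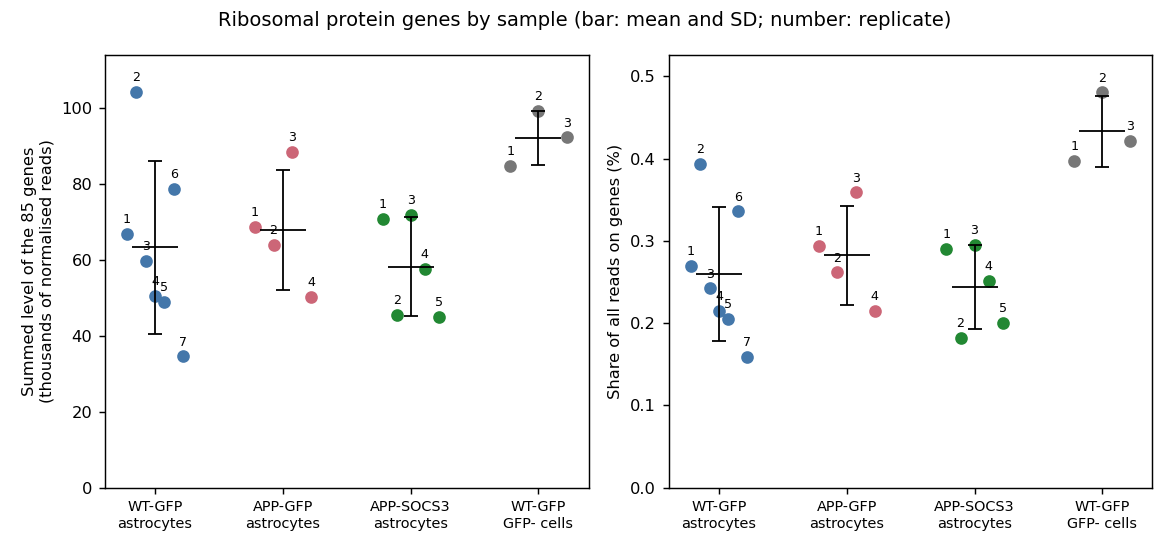
Summed level of the 85 ribosomal protein genes in normalised reads divided by 1000 (left) and their share of all reads on genes in percent (right), with 1 point per sample labelled by its replicate number and a bar for the mean and SD of each group. WT-GFP astrocytes spread from 34578 to 104059 normalised reads, a wider range than the difference between any 2 group means.

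Rpl4, a large subunit protein that lines the tunnel of the nascent chain, had the highest mean level of the entries with 1 symbol, followed by Rplp0, the scaffold of the P-stalk, and Rps9, a small subunit protein. The 5 highest entries held 21.9% of the summed level and the 10 highest 35.7%. Levels per length compare genes better, and here the level was divided by the kilobases of 1 annotated transcript, which is approximate since the lengths of the counted regions are not given. Per kilobase Rps9 was highest at 3843 normalised reads, and Rps14 stood at 3146, Rpl4 at 2693 and Rplp0 at 2405.

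Ribosomal protein genes have many processed pseudogenes, so reads can match several places, and how such reads were counted is not stated. Of the 85 entries, 30 shared over 50% of the 100-base windows of their transcript with a transcript of another gene, and 10 shared none. For Rps27 the share was 98.4%, for Rpl10 91.6%, for Rps12 88.9%, for Rps6 83.6%, 64.7% for Rps2 and 45.3% for Rps3a1, against 18.3% for Rplp0 and 5.14% for Rpl4. Levels of genes with high shares are uncertain. The entries of Rps12 and Rpl13a also carry the symbols of small RNAs from their introns.

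Ribosomal protein genes moved up and down together from sample to sample. Over the 16 astrocyte samples the 82 genes with a mean of at least 10 normalised reads had a median SD of 0.50 on the log2 scale. After the mean shift of each sample was taken away the median SD was 0.26, and it was smaller for 77 of the 82 genes. The shift is the mean of these same genes, so part of this fall is built in. WT-GFP replicate 2 was shifted by 0.74, with 80 of 82 genes above their own mean, and WT-GFP replicate 7 by -0.86, with 2 of 82 above it.

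The other groups had such samples too. All 82 genes were above their mean in APP-GFP replicate 3 (shift 0.56), and 5 of 82 in APP-SOCS3 replicate 2 (shift -0.42). Across the 3321 pairs of genes the median Pearson correlation over these samples was 0.75, given as a description, since the samples share depth, scaling and preparation. Rpl18, Rps25, Rpl28 and Rps14 were among the 5 genes that kept closest to the common shift, with SDs of 0.13 to 0.15 after it was removed.

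The same samples stood at the ends for the ribosome of mitochondria, whose 78 protein genes are transcribed in the nucleus. Their summed level was highest in WT-GFP replicate 2, at 148593 normalised reads, and lowest among astrocytes in WT-GFP replicate 7, at 70246. WT-GFP replicates 2 and 7 had 18107 and 24974 genes detected. Summed endothelial markers were at 44076 normalised reads in WT-GFP replicate 2, 13497 in replicate 7 and 4537 to 17835 in the rest of that group. Mural markers stood at 33395 in WT-GFP replicate 2, the highest of the group. APP-GFP replicate 2, with a shift of -0.05, held 37775 for the endothelial markers. The parts of sample preparation and of other cells in the shift were not tested.

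**Figure D2:**
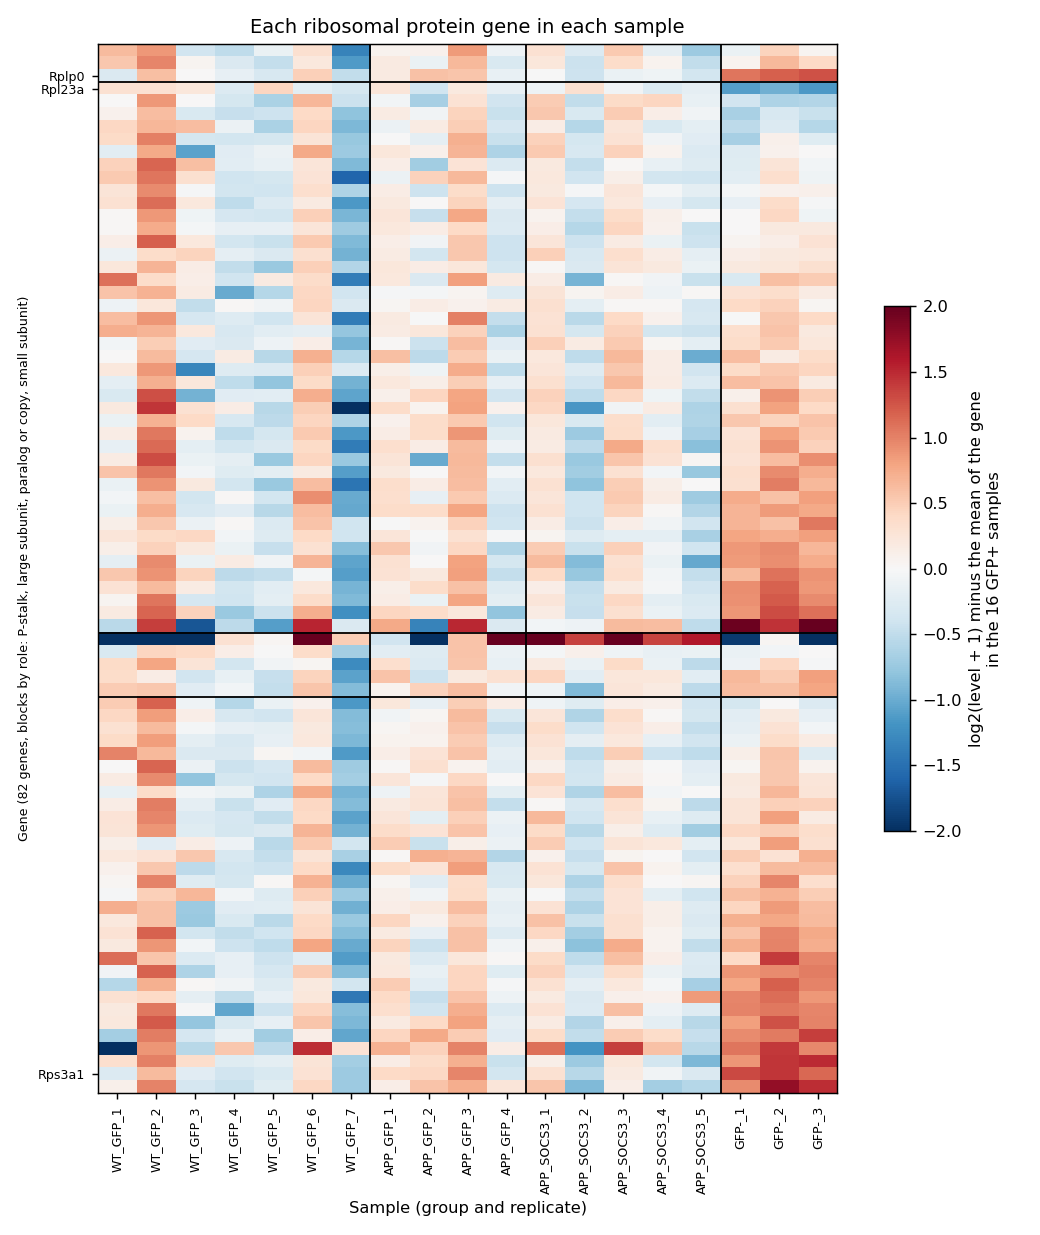
Each row is 1 of 82 ribosomal protein genes, in blocks by role with 3 rows named, and each column 1 of 19 samples, and colour gives log2 of the level plus 1 minus the mean of that gene in the 16 astrocyte samples, from -2 (blue) to 2 (red). Whole columns are red or blue, as in WT-GFP replicates 2 and 7, and the GFP- columns are red for most rows and blue for Rpl23a.

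The comparison of APP-GFP with WT-GFP astrocytes asks what the transgenes change in astrocytes. A gene was called where limma, on log2 of the level plus 1, passed the threshold of 0.05 before adjustment for multiple tests and the levels differed 1.5-fold or more. Of the 82 genes tested 0 were called, where 2.23% of all 22969 genes tested were. By p alone 0 of 82 passed, where 2.36% of all genes did, and edgeR and DESeq2 also called 0. The log2 difference was above 0 for 70 genes and below 0 for 12, with a median of 0.16 against 0.09 over all genes tested. The median was 0.33 with equal upper quartiles, under which the median of all genes was 0.27. With 1 sample left out it ran from 0.01 without WT-GFP replicate 7 and 0.02 without APP-GFP replicate 3 to 0.28 without APP-GFP replicate 4 and 0.31 without WT-GFP replicate 2. All 12 microglial markers were above 0 in the same comparison (median 0.72, 1 called), with summed levels of 14300 to 71623 normalised reads in APP-GFP and 10196 to 35665 in WT-GFP astrocytes, and their part was not tested. By role the medians were 0.20 for the small subunit, 0.14 for the large subunit and 0.31 for the P-stalk, with no call in any.

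Rps3a1, a small subunit protein that contacts initiation factors, had the smallest p of the 82. Its levels in APP-GFP astrocytes were 1242, 1243, 1852 and 724 normalised reads, and in WT-GFP astrocytes 567 at the lowest, 777 at the median and 1458 at the highest. The groups overlapped, at a log2 difference of 0.50 ± 0.31 (SE) and an adjusted p of 0.999 in limma, and the exact permutation test, two-sided, gave p = 0.158 (smallest possible here 0.00606). Rps3a1 was called without WT-GFP replicate 2, together with Rps20, or 2.44% of the 82 against 2.22% of all genes. It was called alone without APP-GFP replicate 4, or 1.22% against 2.78%. Rps20 was also called with the highest and lowest WT-GFP samples by summed level, replicates 2 and 7, both left out. There it was the only call, or 1.22% against 2.11%.

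The largest log2 differences belonged to variable genes. Rps12, at 58.4 to 105 normalised reads in APP-GFP astrocytes and 0 to 148 in WT-GFP astrocytes, differed by 1.09 ± 1.19 (SE), with 1 WT-GFP sample at 0. Rpl3l followed at 0.87 ± 1.51 (SE). Rpl34 and Rpl12, both large subunit proteins, were lowest at -0.32 ± 0.38 and -0.22 ± 0.38 (SE). None of the 4 passed the test.

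Rpl13a, a large subunit protein, and actin served as reference genes for RT-qPCR of astrocytes in this study. Rpl13a was at 740, 859, 1235 and 565 normalised reads in APP-GFP astrocytes and at 301 to 1382 in WT-GFP astrocytes, with a log2 difference of 0.32 ± 0.39 (SE), not called, and the groups overlapped. Actb, which encodes beta-actin, was higher in APP-GFP astrocytes by 0.73 ± 0.23 (SE), a call by p and fold with an adjusted p of 0.999 in limma. The ratio of Rpl13a to Actb varied from 0.0319 to 0.168 in WT-GFP astrocytes, 0.0431 to 0.120 in APP-GFP astrocytes and 0.0422 to 0.0710 in APP-SOCS3 astrocytes, all overlapping, and from 0.0209 to 0.0302 in GFP- cells, below all 16 astrocyte samples.

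The comparison of APP-SOCS3 with APP-GFP astrocytes asks what SOCS3, an inhibitor of JAK-STAT signalling, changes in astrocytes of the transgenic mice. Again none of the 82 genes was called, where 5.70% of all 22844 genes tested were, and edgeR and DESeq2 called 0. By p alone 2 of 82 passed in limma, with folds below 1.5, where 6.27% of all genes did. The log2 difference was below 0 for 68 genes and above 0 for 14, with a median of -0.16 against 0.08 over all genes tested, and it became 0.02 with equal upper quartiles, under which the median of all genes rose to 0.24. With 1 sample left out the median ran from -0.29 without APP-GFP replicate 4 to -0.05 without APP-GFP replicate 3, where 36 genes were above 0 and 46 below. This comparison shares the APP-GFP samples with the comparison before it, so the opposite signs of the medians are not independent.

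Rplp0 was one of the pair. Its levels were 2641, 1994, 2413, 2497 and 2066 normalised reads in APP-SOCS3 astrocytes and 2996, 4008, 3918 and 2388 in APP-GFP astrocytes. APP-GFP replicate 4 lay within the APP-SOCS3 range and the other 3 above it. Rplp0 differed by -0.50 ± 0.18 (SE) on the log2 scale, with a limma p of 0.0189 (adjusted p = 0.677) and an exact permutation p of 0.0635, two-sided.

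Rpl4 was the other. It stood at 3800, 3054, 3184, 3213 and 2343 normalised reads in APP-SOCS3 astrocytes and at 4334, 3647, 4503 and 3584 in APP-GFP astrocytes, so that only APP-SOCS3 replicate 1 reached into the APP-GFP range. The log2 difference was -0.37 ± 0.16 (SE), with a limma p of 0.0368 (adjusted p = 0.775) and an exact permutation p of 0.0476, two-sided, where the smallest possible is 0.0159.

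The genes with the largest log2 differences did not pass the test. They were Rps27 at -0.71 ± 0.46 (SE) and Rpl35a at -0.59 ± 0.44 (SE) below 0, and Rpl3l at 1.92 ± 1.13 (SE) and Rpl12 at 0.34 ± 0.31 (SE) above it.

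The calls of this comparison depended on APP-GFP replicate 4. Without it 6 of the 82 genes were called, among them Rplp0, Rps3a1, Rps4x and Rps19 as lower and Rpl3l as higher in APP-SOCS3 astrocytes. That is 7.32% of them, where 7.56% of all genes tested were called in the same fit. Without APP-SOCS3 replicate 1, Rps4x and Rps19 were called, or 2.44% against 4.89% of all genes, and without APP-SOCS3 replicate 3, 1 gene was, or 1.22% against 4.62%. Markers of other cells moved with the groups: all 12 microglial markers were called lower in APP-SOCS3 astrocytes, with summed levels of 7461 to 13428 normalised reads against 14300 to 71623 in APP-GFP astrocytes, and so were all 10 endothelial markers, at 1367 to 7312 against 6576 to 37775. Their part in the levels of the ribosomal protein genes was not tested. In bulk samples, fewer cells of a type and less RNA per cell cannot be told apart.

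In APP-SOCS3 against WT-GFP astrocytes, which share their samples with the comparisons above, 1 of the 82 genes was called, where 5.21% of all 22958 genes tested were. It was higher, as 3.19% of all genes were. The log2 difference was above 0 for 40 genes and below 0 for 42, with a median of -0.01 against 0.19 over all genes tested. This split rested on single samples, with 20 genes above 0 and a median of -0.15 without WT-GFP replicate 7, and 63 above 0 and a median of 0.13 without WT-GFP replicate 2. The median was 0.34, with 80 genes above 0, under equal upper quartiles, where Rpl22 was called as well and the median of all genes was 0.52. Of the markers of other cells, 9 of 12 microglial and 8 of 10 endothelial ones were called lower in APP-SOCS3 astrocytes, and their part was not tested.

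The gene called was Rpl3l, which encodes a paralog of the large subunit protein Rpl3 known from heart and skeletal muscle. It was at 51.9, 29.8, 49.0, 29.4 and 35.2 normalised reads in APP-SOCS3 astrocytes. In WT-GFP astrocytes it was at 0 in 3 samples and at 13.8, 11.2, 57.0 and 15.8 in the other 4, so that only replicate 6 reached the APP-SOCS3 range. The log2 difference was 2.79 ± 1.14 (SE), with a limma p of 0.0283 (adjusted p = 0.817) and an exact permutation p of 0.0177, two-sided. With 3 samples at 0 the size depends on the value added before the log, and the means, 39.04 and 14.0 normalised reads, differed 2.79-fold. edgeR gave a log2 difference of 1.49 and DESeq2 1.48, neither of them a call.

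Among the largest of the other differences were those of Rps12, at 0.78 ± 1.10 (SE), and Rpl4, at -0.35 ± 0.18 (SE), neither of them called.

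Rpl3l rested on few reads, at most 77 in any sample. In the 4 APP-GFP samples it was at 8.15, 0, 16.8 and 67.1 normalised reads and in GFP- cells at 2.18, 11.3 and 0. The call was lost without WT-GFP replicate 1 or 2, without APP-SOCS3 replicate 1 or 3, and with a minimum mean of 100. Rpl3l has no window in common with another gene, and Rps2 lies next to it on chromosome 17 (Rpl3l at chr17:24727829-24736149, Rps2 at chr17:24720063-24721930).

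**Figure D3:**
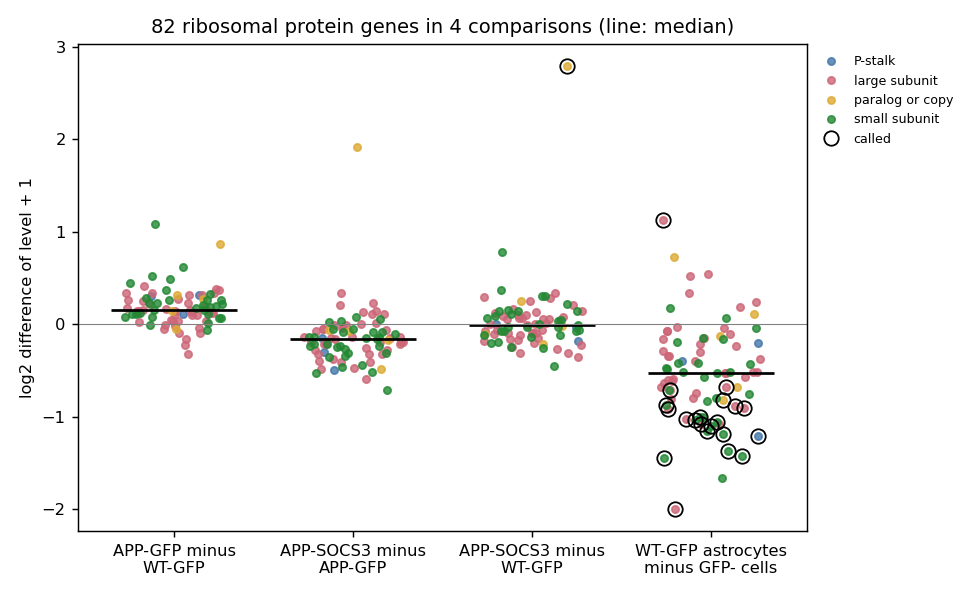
Log2 difference of level plus 1 for the 82 ribosomal protein genes in 4 comparisons, coloured by role, with called genes ringed and the median as a line. Medians lie at 0.16, -0.16 and -0.01 in the astrocyte comparisons and at -0.52 against GFP- cells, and the ringed gene in the third column is Rpl3l.

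Between WT-GFP astrocytes and GFP- cells, 21 of the 82 genes were called, where 42.8% of all 26709 genes tested were. Rpl23a, which sits at the exit of the ribosomal tunnel, was the 1 gene higher in astrocytes, where 9.25% of all genes were called higher, and 20 were lower, where 33.5% were. The median log2 difference was -0.52, against -1.31 over all genes tested. For 13 of the 21, or 15.9% of the 82 genes, the adjusted p was under 0.05 in limma, against 31.9% of all genes tested. Of the 82 genes, 11 lay lower in all 7 astrocyte samples than in all 3 GFP- samples (27.2% of all genes) and 1 higher in all (7.57%).

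The count depends on the fit, and so does its relation to all genes. In limma as reported 25.6% of the 82 genes were called against 42.8% of all genes. edgeR called 7, or 8.54% against 32.2% of all genes, and DESeq2 15, or 18.3% against 33.5%. Equal totals gave 34, or 41.5% against 44.4%. Equal upper quartiles gave 47, or 57.3% against 45.4%, so that there the share of these genes was above that of all genes. With the median of these genes set equal in all samples 16 were called, 5 higher and 11 lower, or 19.5% against 34.9%. The median of all genes was -1.497, -1.74 and -0.37 with equal totals, equal upper quartiles and edgeR, and the share of called genes that were higher was 21.6% in limma, 10.9% with equal upper quartiles and 38.7% by edgeR. For the 82 genes the median was -0.70, -0.98 and -0.18 in turn. Markers of microglia, endothelial and mural cells and precursors, and the number of genes detected, moved with the groups, and their part was not tested. Without WT-GFP replicate 2 the count was 31, or 37.8% against 43.3% of all genes. Without GFP- replicate 2 or 3 it was 13 each, or 15.9% against 36.4% and 33.4% of all genes. Rps3a1, Rplp0 and Rpl23a were called, in the same direction, in 25 of 25 fits, the reported one included.

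Among small subunit genes 10 of 31 were lower, where 33.5% of all genes were. Rps3a1 was at 567 at the lowest, 777 at the median and 1458 at the highest in WT-GFP astrocytes, and at 2349, 2515 and 2085 normalised reads in GFP- cells. The groups did not overlap, at -1.44 ± 0.28 (SE) on the log2 scale with an adjusted p of 0.00300 in limma. The exact permutation test gave p = 0.0167, two-sided, the smallest possible with 7 against 3.

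Rps2, a protein of the mRNA entry channel, was at 700 to 1694 normalised reads with a median of 991 in astrocytes, and at 1787 to 2393 in GFP- cells, without overlap. It differed by -1.04 ± 0.27 (SE), with an adjusted p of 0.0141 in limma.

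Rpsa, also known as the laminin receptor, was at 623 to 1568 in astrocytes and at 1620 to 1782 in GFP- cells, with a log2 difference of -0.87 ± 0.33 (SE) and an adjusted p of 0.0631 in limma. Rps20, Rps27, Rps15a, Rps3, Rps19 and Rps16 were also called in the subunit, with differences from -1.42 for Rps27 to -1.01 for Rps3. Rps6, the substrate of S6 kinases, was not called, at -0.52 ± 0.29 (SE) with an adjusted p of 0.188 in limma.

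Of the 3 P-stalk genes only Rplp0 was called, where 42.8% of all genes were. It ranged from 1898 to 4028 normalised reads with a median of 2374 in WT-GFP astrocytes, and stood at 5607, 6088 and 6449 in GFP- cells, without overlap, a difference of -1.21 ± 0.24 (SE) with an adjusted p of 0.00354 in limma. Rplp1 and Rplp2, which form the dimers bound to Rplp0, were at 964 ± 447 and 452 ± 216 (SD, n = 7) in astrocytes and at 1167 ± 233 and 473 ± 100 (SD, n = 3) in GFP- cells. Neither passed the test, at -0.39 ± 0.40 and -0.20 ± 0.45 (SE). Whether Rplp0 differed from Rplp1 and Rplp2 in its change was not tested.

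Of the large subunit genes 8 of 43 were lower and 1 higher, where 33.5% and 9.25% of all genes were. Rpl23a was at 753 to 1295 normalised reads with a median of 1125 in WT-GFP astrocytes and at 452, 494 and 438 in GFP- cells. All 16 astrocyte samples, whatever the group, lay above all 3 GFP- samples, and the log2 difference was 1.13 ± 0.24 (SE) with an adjusted p of 0.00515 in limma. The 3 astrocyte groups overlapped, with means of 1030, 961 and 938 for WT-GFP, APP-GFP and APP-SOCS3. Rpl23a shares 80.0% of its windows with transcripts of 7 other genes.

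Rpl10, a protein that joins the large subunit last and is needed for the subunits to meet, showed the largest fall, from 732, 510 and 774 normalised reads in GFP- cells to 56.5 to 539 in astrocytes with a median of 129. The groups overlapped, since 1 astrocyte sample reached 539. The log2 difference was -1.999 ± 0.68 (SE), with an adjusted p of 0.0451 in limma, and edgeR, at -1.30, did not call it. Rpl4 was at 2775 to 4872 in astrocytes and at 6085 to 6476 in GFP- cells, without overlap, at -0.67 ± 0.21 (SE) with an adjusted p of 0.0284 in limma.

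Rpl13, Rpl7, Rpl3, Rpl8 and Rpl32 of the large subunit were also called lower, from -1.02 for Rpl13 to -0.71 for Rpl3. With the common level of the genes set equal in all samples, Rpl12, Rpl31, Rpl28 and Rpl21 were called higher in astrocytes beside Rpl23a. In the fit as reported these 4 genes differed by 0.54, 0.52, 0.34 and 0.25, none of them called.

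**Figure D4:**
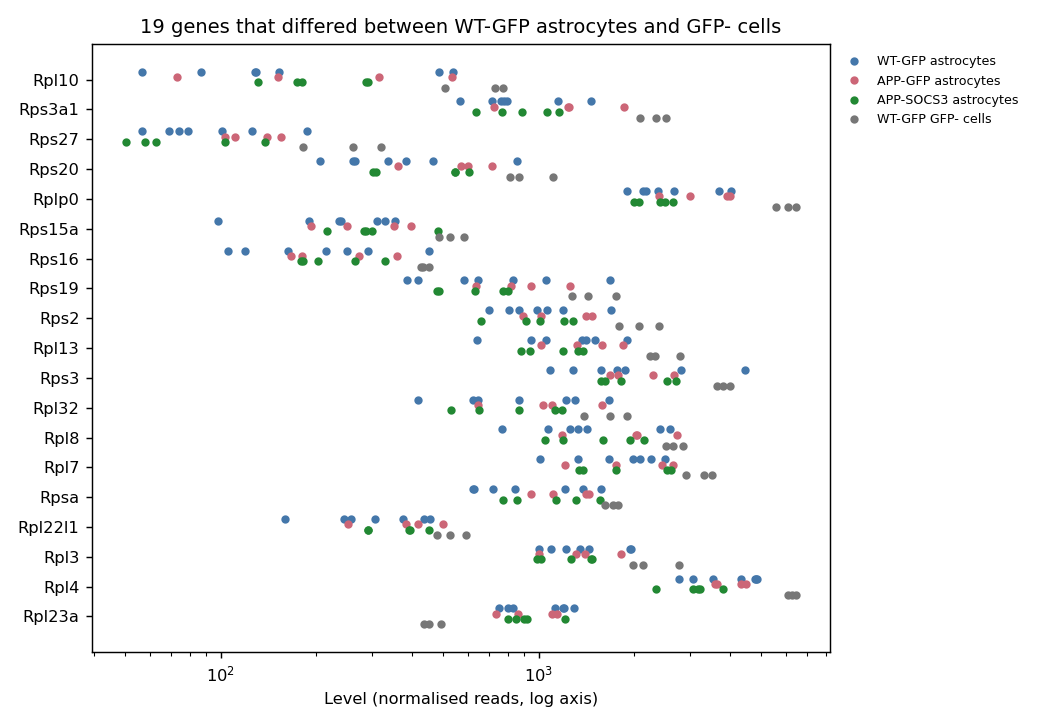
Levels in normalised reads, on a log axis, of 19 of the 21 ribosomal protein genes called between WT-GFP astrocytes and GFP- cells, with 1 point per sample for all 4 groups and genes ordered by log2 difference. The grey GFP- points lie to the right of most astrocyte points in 18 rows and to the left of all of them for Rpl23a, and the astrocyte groups overlap in each row.

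The paralogs differed in how much of the pair they made up. Per kilobase, Rps27l, which is also a p53 target, came to 85.9 ± 3.28% of Rps27l plus Rps27 among WT-GFP astrocytes (SD, n = 7) and 71.5 ± 3.23% in GFP- cells (SD, n = 3). The ranges, 81.1 to 90.4% and 68.6 to 74.98%, did not overlap, and the exact permutation test gave p = 0.0167, two-sided (adjusted p = 0.111 over 20 comparisons of 5 pairs). Rps27l itself was at 892 ± 351 and 911 ± 180 normalised reads, and Rps27 at 98.8 ± 45.2 and 254 ± 68.6 (SD, n = 7 and 3). Rps27 shares nearly all its windows with other genes and Rps27l none, so the share itself is uncertain.

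Rpl7l1, a nucleolar relative of Rpl7, made up 24.9 ± 3.41% of its pair in WT-GFP astrocytes and 14.3 ± 1.65% in GFP- cells (SD, n = 7 and 3), without overlap, with an exact permutation p of 0.0167 (adjusted p = 0.111). Its own level was 1340 ± 348 and 1204 ± 55.6 normalised reads. Rpl22l1, which can replace Rpl22, made up 29.9 ± 4.56% and 34.4 ± 4.71%, and the ranges overlapped. Rpl22l1 itself was called lower in astrocytes, at 159 to 456 against 479 to 592 normalised reads, by -0.81 ± 0.36 (SE) on the log2 scale with an adjusted p of 0.109 in limma, a call made in 9 of 25 fits.

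Between the 3 astrocyte groups, the share of Rpl3l in its pair was 2.99 ± 0.458% in APP-SOCS3 astrocytes (SD, n = 5) against 0.899 ± 1.03% in WT-GFP astrocytes (SD, n = 7), with an exact permutation p of 0.00505 (adjusted p = 0.101). No comparison of the 20 had an adjusted p under 0.05. A change in 1 comparison alone could not have reached that, since the smallest exact permutation p possible was 0.00253. The annotation lists Rps4l as a transcribed processed pseudogene and Rpl32l as a processed pseudogene, and Rps4l stood near its parent Rps4x, at 49.0 ± 4.02% of the pair in WT-GFP astrocytes (SD, n = 7).

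The last paralogs were close to undetected and lay under the minimum level of the fit. With no minimum, Rpl39l was called lower in WT-GFP astrocytes than in GFP- cells in limma, while the exact permutation test, two-sided, gave p = 0.133. Rpl10l, a testis gene, had 0 reads in all 19 samples, which allows up to 3 reads in each. Rpl39l had reads in 2 APP-SOCS3 and 2 GFP- samples, at most 13, and Rpl32l at most 8 in any sample.

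**Figure D5:**
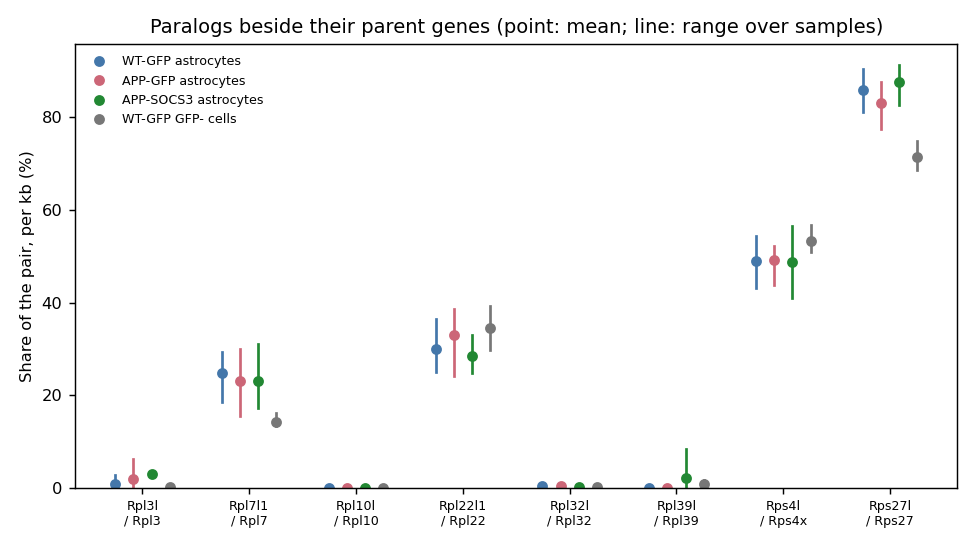
Share of each paralog in the sum of the paralog and its parent gene, in percent of levels per kilobase, for the 4 groups, with the mean as a point and the range over samples as a line. Rps27l lies at 85.9% in WT-GFP astrocytes and 71.5% in GFP- cells, Rps4l near 49.0%, and Rpl10l at 0.

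Neighbours of the family outside the symbols were not called in astrocytes against GFP- cells. Fau was at 800 normalised reads on average in WT-GFP astrocytes and 642 in GFP- cells, with a log2 difference of 0.19 ± 0.39 (SE). Rack1, which sits on the small subunit, differed by -0.39 ± 0.28 (SE), and Rpl36al, an entry shared with Dnaaf2, by 0.14 ± 0.25 (SE). In the list of 4 genes they belong to, 0 were called in any of the 4 comparisons in limma, edgeR or DESeq2, and 1 was called lower than in GFP- cells with equal upper quartiles.

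Other translation genes were read the same way, beside the 33.5% of all genes called lower and the 9.25% called higher in limma. In either direction edgeR called 32.2% of all genes and equal upper quartiles 45.4%, and of those called 38.7% and 10.9% were higher. Of 7 elongation factor genes, 3 were lower in WT-GFP astrocytes than in GFP- cells and 0 higher: Eef1a1, which delivers aminoacyl-tRNA, by -1.75 ± 0.19 (SE), Eef2, which moves the ribosome along, by -1.08 ± 0.26 (SE), and Eef1a2, the neuronal and muscle form, by -2.73 ± 0.86 (SE). For these 7, edgeR called 3 lower and 1 higher, and equal upper quartiles gave 3 and 0. Their median log2 difference was -0.22 in limma and 0.13 by edgeR. Of 31 initiation factor genes 9 were lower and 2 higher, while edgeR called 6 lower and 6 higher, and equal upper quartiles gave 15 and 0. Of 5 other genes with TOP mRNAs 3 were lower, Tpt1 among them by -0.93 ± 0.30 (SE), against 1 by edgeR and 5 with equal upper quartiles. Of 41 genes of ribosome biogenesis 3 were higher and 3 lower, and with equal upper quartiles 1 and 14. In the 3 astrocyte comparisons 0 genes of these lists were called in limma or edgeR, and DESeq2 called 1 initiation factor gene.

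Of the 78 genes for mitochondrial ribosomal proteins, 32 were higher in WT-GFP astrocytes than in GFP- cells and 0 lower, with a median log2 difference of 0.61. The number depends on the scaling, from 3 higher and 1 lower (median 0.14) with equal upper quartiles to 53 higher and 0 lower (median 0.93) by edgeR. The medians of all genes in these fits were -1.74 and -0.37, and -1.31 in limma. The summed level was 105810 ± 25378 normalised reads in astrocytes (SD, n = 7) and 66704 ± 5677 in GFP- cells (SD, n = 3). For the 85 cytosolic genes the means were 63272 and 92038. Over the small and large cytosolic subunits, the sum of the first divided by the sum of the second was 0.683 to 0.810 across WT-GFP astrocytes and 0.798 to 0.854 across GFP- samples, which overlapped.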

How the data were processed

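RNAseq of 19 samples of sorted cells was used. The authors amplified RNA with a SMARTer low-input kit, mapped reads to mm10 with STAR 2.4.0, counted them on constitutive regions of FAST DB genes and normalised them with DESeq2, and the deposited signal is the count divided by a size factor. Whole reads were recovered for 100% of values (tolerance 0.01). Strand use and treatment of reads matching several genes are not given in the sources used here. Depth was 19331876 to 32621917 reads on genes per sample.

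Groups and replicate numbers came from the labels. Each comparison was fitted with limma 3.58.1 (trend) on log2(level + 1) over all genes with a mean of at least 10 in either group, with calls at the p of 0.05 and fold of 1.5 the authors used. Adjusted values are Benjamini-Hochberg over the whole table tested. Adding 1 shrinks the fold changes of low genes, while samples without reads can make them larger than the ratio of the means, as for Rpl3l. Exact permutation tests used scipy 1.17.1. Alternatives included edgeR 4.0.16 and DESeq2 1.42.0 on the recovered counts, other scalings, pseudocounts and minimums, and leaving out samples. The method was tested on simulated data. Replicates differed beyond sampling noise (40 pairs).

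Genes named in the text were the P-stalk genes, Rpsa, Rps6 and Rpl13a, paralogs with their parents, the 3 highest and 3 lowest by level, and in each comparison the 5 called genes of smallest p and the 2 largest rises and falls. Others were named after their values were seen. Genes and lists were chosen with earlier results of these data known. Transcript lengths and overlaps came from GENCODE M21, in which all 85 genes overlapped the authors' positions. Some items are not reported here.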

Additional observations from a re-analysis of the deposited data

Results flagged for a closer look

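For 32 named genes and the summed level, 99 groups of 4 to 7 samples were examined for a sample far from the others, and 4 were found, where chance gives about 1 in 20 groups. Rpl3l was at 57.0 normalised reads in WT-GFP replicate 6, with the next sample at 15.8. Rplp2 and Rpl7l1 were at 769 and 1875 in APP-GFP replicate 3, with the next samples at 455 and 1165, and in that sample all 82 ribosomal protein genes lay above their mean. Rpl23a was at 1213 in APP-SOCS3 replicate 2, with the next sample at 918, while 5 of the 82 genes lay above their mean there.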

How the results depend on the processing

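Counts of called ribosomal protein genes moved most against GFP- cells, from 21, or 25.6% against 42.8% of all genes. They were 34 with equal totals (41.5% against 44.4%), 47 with equal upper quartiles (57.3% against 45.4%) and 7 by edgeR (8.54% against 32.2%). By adjusted p the count was 13 (15.9% against 31.9%). With 1 sample left out it went from 13 (15.9% against 36.4% or 33.4%) to 31 (37.8% against 43.3%). The added alternatives, chosen after seeing the data, gave 16 (19.5% against 34.9%) to 26 (31.7% against 44.0%). In APP-SOCS3 against WT-GFP astrocytes the count of 1 (1.22% against 5.21%) became 0 by edgeR, DESeq2, adjusted p or a minimum mean of 100. It was 2 with equal upper quartiles (2.44% against 6.84%), and 0 to 1 with 1 sample left out. Leaving out 1 sample gave 0 to 2 calls in APP-GFP against WT-GFP astrocytes, where 2 calls are 2.44% against 2.22% of all genes. It gave 0 to 6 in APP-SOCS3 against APP-GFP astrocytes, where 6 calls are 7.32% against 7.56%. Leaving out the highest and lowest WT-GFP samples gave 1 in APP-GFP against WT-GFP astrocytes, or 1.22% against 2.11%. No named gene that was called, or had p under 0.05, reversed its direction under the alternatives run. The cause of these changes was not tested.

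Same-numbered samples deviated together little or not at all (correlations from -0.08 to 0.15). So few pairs cannot tell whether such samples share a mouse or a batch. With the replicate number as a block, 5 of the 21 genes were called against GFP- cells, or 6.10% of those tested against 41.2% of all genes. The counts of the other comparisons did not change, while the median of APP-GFP against WT-GFP astrocytes moved from 0.16 to -0.02. Pairs in which both samples correlated best with their own number were 1 of 4, 2 of 4, 0 of 5 and 0 of 3 in the 4 comparisons. Precision is limited by the spread between samples and by as few as 3 samples in a group, more than by depth, except for Rpl3l, Rpl10l, Rpl32l and Rpl39l.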
